A study of Mus musculus with 6 samples.

Results

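The genes described here encode proteins that join epithelial cells to each other: the connexin genes Gjb1 and Gjb2, the adhesion genes Cdh1 and Epcam, and the tight junction genes Ocln, Tjp1, Cldn3, Cldn10 and Cldn12. They were taken by symbol, 9 of the 55367 symbols counted in each library, and all 9 were found. The libraries are RNA-seq profiles of acinar cells from mouse pancreas, which secrete digestive enzymes, and the series states gene expression in these cells as its aim. All 6 belong to 1 untreated group, and 300 GFP-positive cells were sorted for each and carried through a Smart-seq2 preparation. Every library carries the alleles Pdx1-Cre; Klf5-mCherry-CreERT2. Pdx1 regulatory sequence drives Cre from the early pancreas onward, in the precursors of acinar, duct and islet cells alike. The genotype names no GFP reporter, no age is given, and the molecule is labelled genomic DNA although the assay is RNA-seq. Whether different animals gave the 6 samples is not stated. The p-values therefore measure only the spread between these samples, which may be technical.

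Epithelial cells are sealed by tight junctions, in which claudins form the strands, occludin lies beside them and ZO proteins tie them to actin. Below these, adherens junctions hold neighbours together through the calcium-dependent cadherins. Gap junctions are channels of connexins that pass ions and small molecules from cell to cell, and in the exocrine pancreas they couple the acinar cells of an acinus. The connexins of these cells are Cx32, encoded by Gjb1, and Cx26, encoded by Gjb2. The acinar factor Mist1 (Bhlha15) is known to be needed for normal Gjb1 transcription in mouse acinar cells.

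The RefSeq promoter table (build GRCm38.p6) held 8 of the 9 members. The 100 bases before the annotated start are given for the listed members whose counts stood clear of background in every library. For Gjb1, which has 4 annotated starts in the table, the first and the last are shown. Capitals mark the motifs searched on both strands, namely the E-box CANNTG (the binding site class of Mist1 and other helix-loop-helix factors, of which CATATG and CAGGTG are forms), the GC box GGGCGG, the TATA box TATAAA and the CCAAT box CCAAT. All windows lie outside annotated exons and read 5′ to 3′ on the strand of the gene.
Gjb1, first start, chrX:101376276-101376375, plus strand: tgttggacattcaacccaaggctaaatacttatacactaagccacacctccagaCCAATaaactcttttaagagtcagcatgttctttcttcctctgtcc
Gjb1, last start, chrX:101383632-101383731, plus strand: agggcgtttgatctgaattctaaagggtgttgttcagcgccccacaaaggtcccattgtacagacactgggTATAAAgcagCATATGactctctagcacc
Gjb2, chr14:57104703-57104802, minus strand: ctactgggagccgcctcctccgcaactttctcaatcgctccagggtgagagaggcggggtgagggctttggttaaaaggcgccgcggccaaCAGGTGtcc
Cldn3, chr5:134986114-134986213, plus strand: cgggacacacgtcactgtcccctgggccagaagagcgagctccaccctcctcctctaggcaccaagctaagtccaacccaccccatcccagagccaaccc
Epcam, chr17:87635879-87635978, plus strand: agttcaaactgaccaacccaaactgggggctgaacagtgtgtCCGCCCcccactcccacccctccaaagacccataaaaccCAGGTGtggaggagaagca

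Before its last start Gjb1 held a TATA box and the E-box form CATATG, which 5.56% and 1.12% of the 32851 windows of this length in the table hold. These shares are per window, and Gjb1 has 4. Of the windows not shown, that of the second start held none of the motifs and that of the third 2 E-boxes of other forms. Gjb2 and Epcam each held the E-box form CAGGTG close to the start, a form found in 7.03% of all windows, while an E-box of any kind is in 34.4% and a GC box in 24.7%. Cldn3 held none of these letters in its window. Such matches describe the sequence and are neither sites of binding nor causes of a level. The counts run over whole genes and do not say which start was used.

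Depth and background differed between libraries. Totals were 4670819 to 7072270 counts, of which ribosomal RNA took 38.1% to 46.8% in replicates 1 to 3 and 59.9% to 60.9% in replicates 4 to 6. Library names carry 1 number for replicates 1 to 3 and another for replicates 4 to 6, and what it stands for is not stated. Because introns were counted, a background was estimated from olfactory and vomeronasal receptor genes. Per Mb of span this gave 324 counts in replicate 5 and 25.8 to 108 in the other 5. Whether this background is unspliced RNA or DNA was not tested. All 11 acinar markers were over 3 times background in every library, as were 5 of 12 duct markers and 12.4% of all protein-coding nuclear genes. Summed TPM (counts per kb of exon, scaled to the same sum in every library) was 135152 to 438643 for the acinar markers. It was 57.4 to 181 for 12 duct markers, led by Spp1, and 9.78 to 2230 for 12 islet markers. For 9 fibroblast markers it was 2.10 to 22.2, for 9 immune markers 2.87 to 18.2 and for 9 endothelial markers 0.974 to 15.8. The endothelial claudin gene Cldn5 had 1 count in all, and the duct keratin gene Krt19 had 2.76 to 8.31 TPM. Many of the genes below are known from duct and islet cells too, and the part of such cells in the levels was not tested. In such pools, fewer cells of a type and less RNA per cell cannot be told apart.

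Gjb1 (chromosome X, 101376378 to 101385629, build mm10, plus strand) was the most abundant of the 9 genes. It had 20.6, 23.4, 20.0, 23.7, 19.1 and 22.0 TPM in replicates 1 to 6, from 70 to 156 counts, a mean of 21.5 ± 1.86 (SD, n = 6). No library stood apart, and the ranges of replicates 1 to 3 and 4 to 6 overlapped. By mean TPM it was gene number 322 of 21949 protein-coding nuclear genes. Its coefficient of variation of 8.67% was about that of counting alone (9.15%), and of the 406 genes within 2-fold of its mean 2.96% had a lower one. That evenness belongs to this scale. With ribosomal RNA left out of the total, Gjb1 had 27.5 to 32.9 TPM in replicates 1 to 3 and 41.7 to 46.9 in replicates 4 to 6, and the coefficient of variation was 22.3%. The 3 protein-coding genes with the most similar level in all 6 libraries were Pdia6, an enzyme of protein folding, Atp5j, a subunit of ATP synthase, and Wars, a tRNA synthetase. Their root mean square differences from Gjb1 in log2(TPM + 1) were 0.10, 0.12 and 0.13.

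Gjb2 (chromosome 14, 57098600 to 57104702, minus strand) was the other connexin gene with clear counts. It had 6.00, 7.66, 4.44, 4.66, 5.23 and 5.25 TPM, from 27 to 64 counts, a mean of 5.54 ± 1.17. Gjb1 exceeded it in every library, by a ratio of 3.05 in replicate 2 to 5.08 in replicate 4, with a mean of 3.99 ± 0.749 (SD, n = 6). The difference in log2(TPM + 1) was 1.79 ± 0.23 (exact two-sided sign-flip p = 0.031, the smallest that 6 libraries allow, adjusted p = 0.056).

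The remaining connexins added little. Over all 20 connexin genes, Gjb1 took 70.7% ± 7.37 of the summed TPM and Gjb2 18.1% ± 3.28, and together they took 72.9% in replicate 5 and 86.0% to 95.7% in the other 5 libraries. With expected background subtracted they took 88.8% to 97.0%. Of the 21 other connexin and pannexin genes 0 were over 3 times background in all libraries and 11 of the 15 with any count had 50% or more of it expected as background. Gja5 had 1.12 TPM and Gja4 0.360, and background equalled 103% of the counts of Gja5, of which 95.1% of exon bases are shared with another annotated gene. Gja1, which encodes the widespread connexin Cx43, had 0.210 ± 0.118 TPM. No counts fell on 6 of these genes, of which 3 have all exon bases inside other genes, so that 0 cannot be read as absence.

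**Figure D1:**
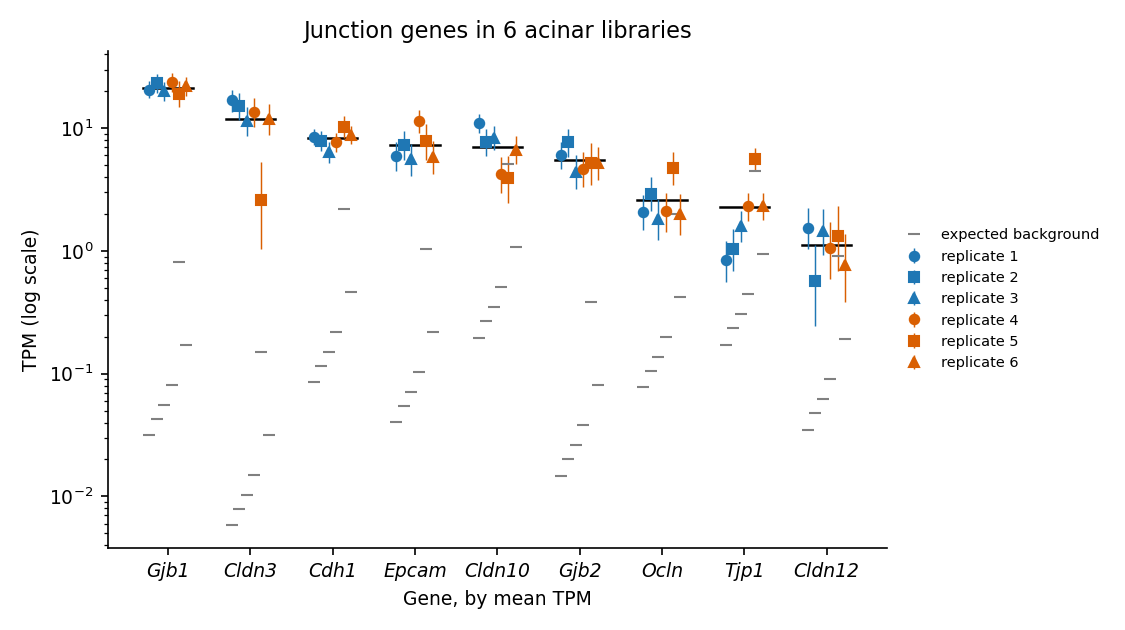
TPM (log axis) of the 9 genes in each of 6 libraries, ordered by mean TPM, with exact Clopper-Pearson 95% intervals, a black bar at the mean and a grey dash at the TPM that expected background alone would give. Gjb1 lies between 19.1 and 23.7 TPM in all libraries, and the Cldn3 point of replicate 5 lies at 2.59 TPM, below the other 5.

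Cdh1 encodes E-cadherin, the main adhesion protein of the adherens junction (chromosome 8, 106603351 to 106670246, plus strand). It had 8.53, 7.93, 6.36, 7.68, 10.3 and 8.85 TPM, from 101 to 173 counts, a mean of 8.27 ± 1.31. The highest value was in replicate 5, where 21.5% of its counts were expected as background. With background subtracted the highest were 8.47 TPM in replicate 6 and 8.45 in replicate 1. The genes most similar in level over the 6 libraries were Gnb1, a G protein subunit gene, Rex1bd and Rtn3, with root mean square differences of 0.14, 0.15 and 0.15 in log2(TPM + 1).

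The other listed adherens junction genes had lower mean TPM than Cdh1, though for some of them much of the exon sequence is shared with other genes. Of 17 other adherens junction genes 10 (58.8%) averaged at least 1 TPM, where 32.2% of all protein-coding nuclear genes did. But 1 of the 17, the plakoglobin gene Jup, was over 3 times background in all libraries, at 3.87 ± 0.560 TPM. The list was led by Ctnna2 at 5.21 TPM, but background equalled 114% of its counts, and it had 22.3 TPM in replicate 5 against 0.682 to 4.22 in the others. Ctnna1, the alpha-catenin gene, had 3.71 ± 0.539 TPM. The beta-catenin gene Ctnnb1 had 2.36 ± 0.547 and the catenin gene Ctnnd1 0.391 ± 0.203. Of their exon bases 67.8% and 81.3% lie inside other genes' spans, so their levels and their order against Cdh1 are uncertain. The endothelial cadherin gene Cdh5 and the neural cadherin gene Cdh2 had 0.514 and 1.07 TPM, with 66.6% and 89.1% of counts expected as background.

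Epcam, which encodes an adhesion molecule of epithelial surfaces (chromosome 17, 87635979 to 87651129, plus strand), had 5.96, 7.30, 5.59, 11.4, 7.85 and 5.88 TPM, from 37 to 85 counts, a mean of 7.33 ± 2.19. Replicate 4 was highest, with an interval of 9.13 to 14.1 TPM, and replicate 5 came next at 5.53 to 10.8. Replicate 4 also had the highest duct marker sum, with Spp1 at 131 TPM against 22.1 to 54.1 in the others, and the highest Cd9 at 11.1 TPM. That sum rested on Spp1. The other 11 duct markers summed to 49.3 TPM in replicate 4 and 51.5 in replicate 2, Krt19 was highest in replicate 2, and Muc1 had 24.7 TPM in replicate 4 against 33.7 to 38.0 in replicates 1 to 3. Whether duct cells had a part in this was not tested. Among the other epithelial surface genes the protease inhibitor gene Spint2 had 24.1 ± 4.69 TPM, the prostasin gene Prss8 13.0 ± 3.29 and Spint1 7.18 ± 2.05.

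Cldn3 (chromosome 5, 134986214 to 134987472, plus strand), a sealing claudin with 1 exon, was the most abundant claudin gene on average. It had 16.8, 15.1, 11.4, 13.6, 2.59 and 11.9 TPM, a mean of 11.9 ± 4.99. The first 4 libraries and replicate 6 had 51 to 94 counts, whereas replicate 5 had 7, with an interval of 1.04 to 5.34 TPM. Because the gene has no intron and a short span, expected background was 0.221% of its counts, the smallest share among the 9. Its last 40 bases overlap the antisense gene Wbscr25, and reads there cannot be assigned without strand.

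Cldn10 encodes a claudin whose forms make ion-selective pores (chromosome 14, 118787908 to 118875489, plus strand). It had 10.96, 7.70, 8.34, 4.21, 3.96 and 6.68 TPM, from 22 to 126 counts, a mean of 6.98 ± 2.65. Replicates 4 to 6 all lay below replicates 1 to 3. In replicate 5 the expected background was 129% of its counts, so no level above background was measured there. Its 2 annotated starts lie 67079 bp apart and the counts do not separate the forms. The small ribosomal RNA gene n-R5s51 inside its span had no counts.

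Cldn12, a claudin studied for paracellular calcium transport (chromosome 5, 5489537 to 5514958, minus strand), was the lowest. It had 1.55, 0.572, 1.45, 1.05, 1.32 and 0.764 TPM, from 8 to 29 counts, a mean of 1.12 ± 0.391. Counting alone would give a coefficient of variation of 26.6%, and the observed one was 35.0%, so counting error was a large part of the spread at this depth. In replicate 5, 68.7% of its counts were expected as background.

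Over 24 claudin genes, Cldn3 took 31.7% ± 12.3 of summed TPM, Cldn10 18.5% ± 5.77 and Cldn12 3.02% ± 0.983. In replicate 5 the share of Cldn3 was 7.51%, against 31.4% to 40.9% in the other 5 libraries. Cldn7, which encodes a partner of EpCAM, was the highest claudin outside the 9 genes, at 4.87 ± 1.43 TPM, and took 13.1% ± 3.68. It was followed by Cldn9 at 2.08 and Cldn8 at 2.05 TPM. Of the 22 other claudin and claudin-like genes 8 (36.4%) averaged at least 1 TPM, near the 32.2% of all protein-coding nuclear genes. Of the 22, 6 (Cldn2, Cldn4, Cldn6, Cldn7, Cldn8 and Cldnd1) exceeded background by more than 3 times in each library. For a gene of short span a single count can pass that mark, as for Cldn4 with 1 to 15 counts. Cldn2, a pore claudin, had 4.26 TPM in replicate 4 and 0.401 in replicate 3.

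**Figure D2:**
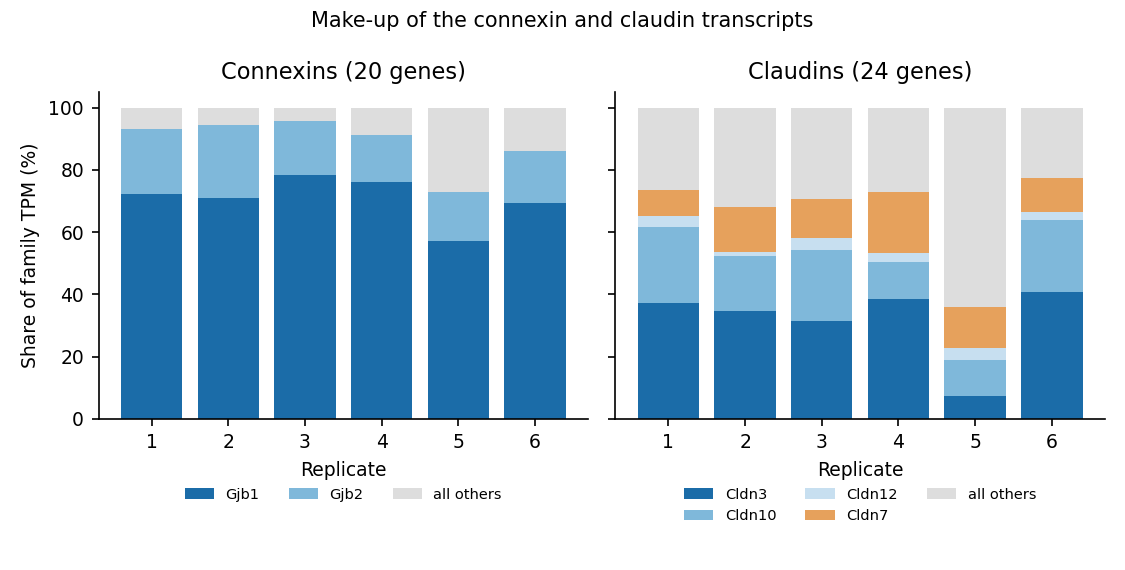
Share of summed TPM (%) of 20 connexin genes, left, and 24 claudin genes, right, in each replicate, as stacked bars. Gjb1 is the largest part of the connexins in every library, and the Cldn3 part of replicate 5 is 7.51% against 31.4% or more elsewhere.

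Ocln, the occludin gene (chromosome 13, 100496507 to 100552718, minus strand), had 2.08, 2.93, 1.83, 2.10, 4.74 and 2.02 TPM, from 29 to 43 counts, a mean of 2.62 ± 1.11. Replicate 5 was again highest, where 42.4% of the counts were expected as background, and with background subtracted it had 2.86 TPM against 2.83 in replicate 2.

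Tjp1, the gene of the scaffold protein ZO-1 (chromosome 7, 65296165 to 65527781, minus strand), had 0.837, 1.04, 1.61, 2.31, 5.67 and 2.33 TPM, from 27 to 95 counts, a mean of 2.30 ± 1.76. Its span is the longest of the 9 at 231617 bp, and 41.4% of all its counts were expected as background, 79.0% in replicate 5. With background subtracted the range was 0.665 to 1.87 TPM, and the value of replicate 5, 1.24, lay inside it. The short genes Gm44792, Gm44794 and Gm44795 inside its introns had no counts.

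Of the 16 other tight junction genes 8 reached a mean of 1 TPM. They were led by the scaffold gene Magi1 at 10.3 ± 2.89 TPM, the JAM-A gene F11r at 5.72 ± 1.60 and the cingulin-like gene Cgnl1 at 2.73 ± 1.09. Marveld3, a relative of occludin, at 1.69 ± 0.628, was the 1 gene over 3 times background in all libraries. Among 15 polarity genes, whose products place the junctions between the apical and lateral surfaces, 11 (73.3%) reached 1 TPM. But 2 of the 15 (13.3%) were over 3 times background in all libraries, near the 12.4% of all protein-coding nuclear genes. Crb3 had 5.20 ± 1.73, Pard3 4.68 ± 1.79 and Llgl2 3.99 ± 0.966. Among 14 desmosome genes 5 (35.7%) reached 1 TPM, near the share of all genes, and 1 (7.14%) was over 3 times background in all libraries. Perp had 11.8 ± 2.50, Pkp4 5.97 ± 1.74 and Pkp2 1.34 TPM, while the desmoplakin gene Dsp had 0.963 ± 0.379. The median of mean TPM was 6.98 over the 9 genes. It was 1.30, 1.57, 1.04 and 0.715 over the other tight junction, polarity, adherens and desmosome genes. Over the other epithelial surface genes it was 5.66, and over all protein-coding nuclear genes 0.490. The members and lists were chosen with earlier results of these data known.

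**Figure D3:**
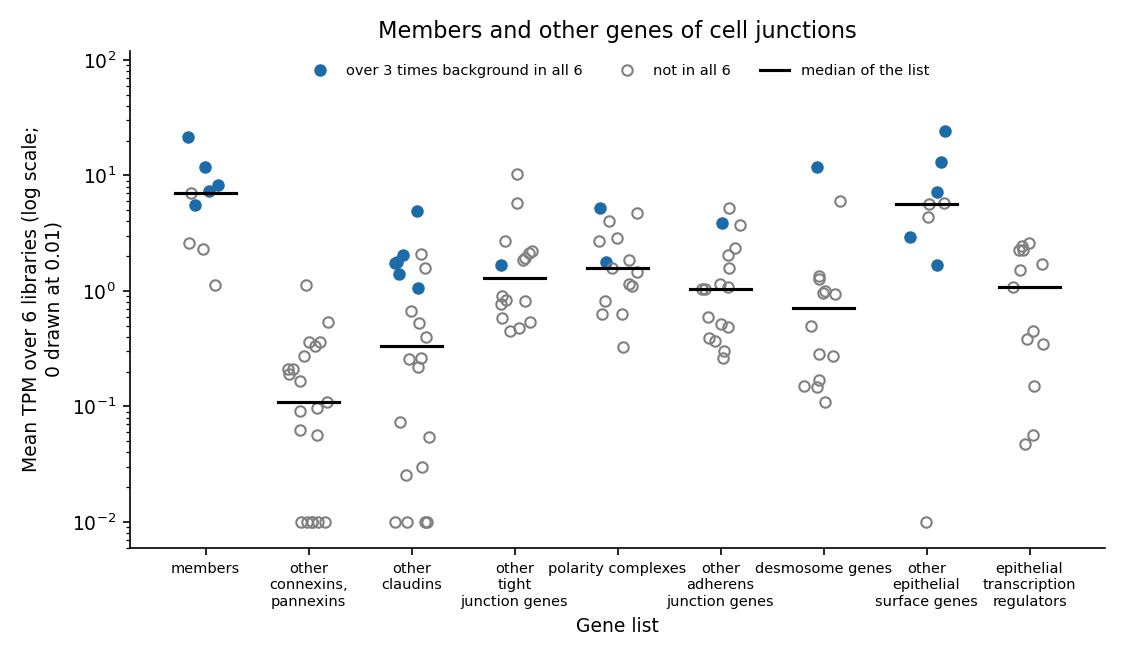
Mean TPM over 6 libraries (log axis) of each gene in the listed junction groups, filled where counts exceeded 3 times background in all libraries, with a bar at the median of each list. The 9 members have a median of 6.98 TPM and the other connexins and pannexins have no filled point.

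Set against background, 5 of the 9 genes had counts over 3 times the expected number in every library: Gjb1, Gjb2, Cdh1, Epcam and Cldn3. Of all protein-coding nuclear genes 12.4% did, and of the 9 other epithelial surface genes 5 (55.6%). The members and lists were chosen with earlier results of these data known, so no excess over all genes is read from these shares. Without replicate 5 the number was 8, all but Tjp1, and the share of all genes was 32%. At 10 times background it was 3, namely Gjb1, Gjb2 and Cldn3, against 3.84% of all genes. Over all libraries the background share was 0.707% of the counts of Gjb1, 1.28% of Gjb2, 2.69% of Epcam, 5.05% of Cdh1, 12.9% of Cldn10, 14.9% of Cldn12, 15.3% of Ocln and 41.4% of Tjp1.

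**Figure D4:**
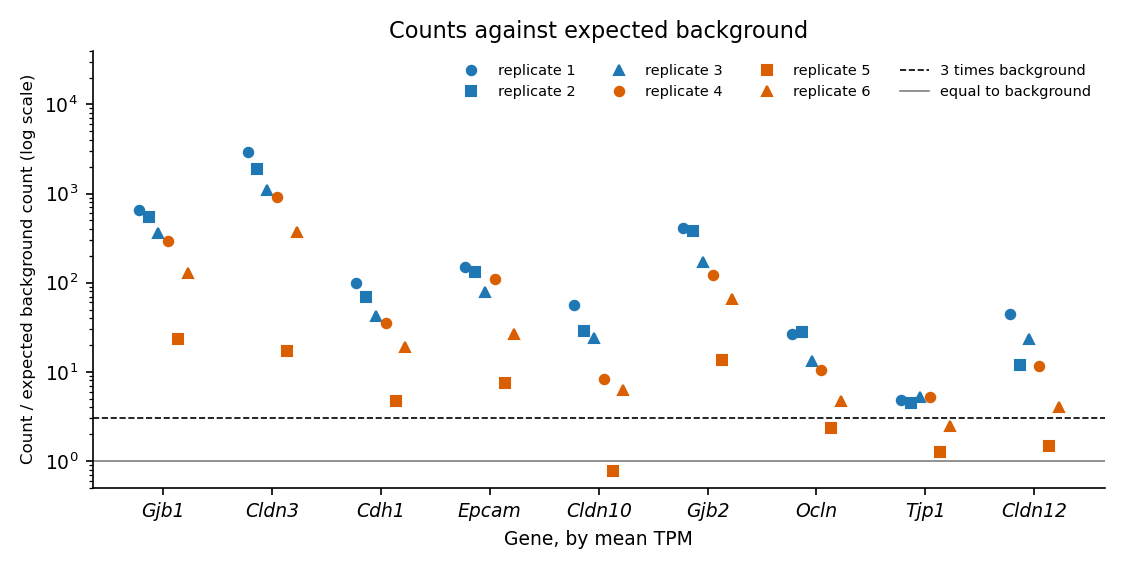
Ratio of each gene's count to its expected background count (log axis) in each of 6 libraries, with lines at 1 and at 3. The Cldn10 point of replicate 5 is at 0.775, and Gjb1, Gjb2, Cdh1, Epcam and Cldn3 lie above 3 in all libraries.

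By mean TPM the order was Gjb1, Cldn3, Cdh1, Epcam, Cldn10, Gjb2, Ocln, Tjp1 and Cldn12. Between neighbours in it, Gjb1 exceeded Cldn3 by 0.95 ± 0.78 in log2(TPM + 1) and Gjb2 exceeded Ocln by 0.88 ± 0.39, each in 6 of 6 libraries (exact sign-flip p = 0.031, adjusted p = 0.056). The other 6 neighbouring pairs differed by 0.10 to 0.52, with SDs of 0.38 to 0.99 and adjusted exact p-values from 0.19 to 0.84, and cannot be ordered. Of all 36 pairs 20 had 1 direction in every library. By the exact test with Benjamini-Hochberg adjustment 0 pairs passed, with 20 at an unadjusted p under the threshold, and the smallest adjusted p was 0.056. With 6 libraries, pairs of 1 direction pass together once 23 of them share the smallest p, and otherwise none pass. By limma 27 passed. The exact test passed 23 pairs once background was subtracted. The order rests on exon length. By gene span Cldn3 came first, at 18.6, and Gjb1 second, at 5.90, in the units of that scale, and Tjp1 came last. Without length scaling Cdh1 came first, at 20.3 CPM (counts scaled to the total alone), and Gjb1 second, at 19.9.

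Replicates 4 to 6 were then compared with replicates 1 to 3 as a possible batch. Cldn10 had 7.70 to 10.96 TPM in replicates 1 to 3 and 3.96 to 6.68 in replicates 4 to 6, and Tjp1 had 0.837 to 1.61 and 2.31 to 5.67. Ranges were thus apart, lower for 1 of the 9 genes and higher for 1, where 5.91% of the 8721 genes compared were lower and 33.3% higher. Cldn10 was not alone among claudins, since Cldn8 and Cldn9 were also apart and lower in replicates 4 to 6. Mean TPM fell from 2.81 to 1.29 for Cldn8 and from 3.49 to 0.674 for Cldn9. The ranges of the remaining claudin genes that averaged at least 1 TPM overlapped. Among the polarity genes Crb3 and Llgl2 were apart and lower, while Patj, Mpp5, Crb1 and Dlg1 were apart and higher. With background subtracted the ranges of Tjp1 overlapped (0.665 to 1.30 and 1.24 to 1.87 TPM) and those of Cldn10 did not (7.44 to 10.8 and 0 to 5.66 TPM), where 8.74% of all genes were apart and lower and 10.7% apart and higher. With ribosomal RNA left out of the total those of Cldn10 overlapped (10.8 to 14.6 and 8.34 to 13.7 TPM), on a scale where 62.5% of all genes were apart and higher in replicates 4 to 6 and 1.15% apart and lower. On that scale Gjb1, Cdh1, Epcam and Tjp1 were apart and higher in replicates 4 to 6.

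By edgeR the log2 difference of Cldn10 was -1.34 (SE 0.36, adjusted p = 0.089), that of Tjp1 0.96 (SE 0.35, adjusted p = 0.13), that of Gjb2 -0.76 (SE 0.32, adjusted p = 0.17) and that of Gjb1 -0.46 (SE 0.28, adjusted p = 0.34). None of the 9 genes passed over all genes, where 0.0115% of 8723 tested were called higher and 0.0% lower, and Cldn10, Tjp1 and Gjb2 had an unadjusted p under the threshold. Of all genes tested 25.9% had one, near the share of 3 in 9. The adjusted p of Cldn10 over the alternatives ran from 0.014 to 0.30. It passed with a lower level in replicates 4 to 6 under DESeq2 (-1.48, adjusted p = 0.020, 2.44% of genes called lower and 5.81% higher), with no filter on low counts (-1.58, adjusted p = 0.016, 0.682% lower and 2.65% higher), without replicate 4 (-1.40, adjusted p = 0.037, 5.72% lower and 16.9% higher) and without replicate 5 (-1.11, adjusted p = 0.014, 4.07% lower and 4.04% higher). The acinar marker genes also lay lower in replicates 4 to 6, with a median of -1.41 over the 11 and 0 called, and the summed acinar marker TPM was 384573 to 438643 in replicates 1 to 3 and 135152 to 234497 in replicates 4 to 6. Other cell type lists lay higher, again with 0 called: the median was 4.14 over the 4 islet markers tested, 1.504 over 2 endothelial, 0.71 over 2 immune and 0.67 over 9 duct markers, while it was -0.54 over 6 fibroblast markers. The islet genes did not rise alike. Ins1 had 201, 11.4 and 729 TPM in replicates 4 to 6, against 2.51 to 13.0 in replicates 1 to 3. Ins2 had 796, 20.9 and 1324 TPM, against 5.49 to 18.0, and was over 3 times background in 5 of 6 libraries. Gcg had 0.198, 1.56 and 166 TPM, against 0.893 to 5.58. Of the duct markers, mean TPM fell for Muc1 (35.8 to 21.2) and Krt19 (5.79 to 4.31) and rose for the others. Spp1 had 131, 39.6 and 22.1 TPM in replicates 4 to 6, against 26.7 to 54.1 in replicates 1 to 3. Background equalled 90.9% of the counts of Slc4a4 and 69.3% of those of Cftr, both highest in replicate 5. It was 8.45% for Krt7 and 2.34% for Sox9, and Onecut1 had 4 counts in all. Expected background made up 63.6% and 58.6% for the endothelial genes Pecam1 and Flt1, both highest in replicate 5. The part of these cell types in the differences was not tested. The 9 genes had a median of -0.46, against -0.004 over all genes tested. Of the other junction lists, 6 claudin, 12 tight junction, 11 polarity, 12 adherens and 7 desmosome genes were tested and 0 were called in either direction.

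**Figure D5:**
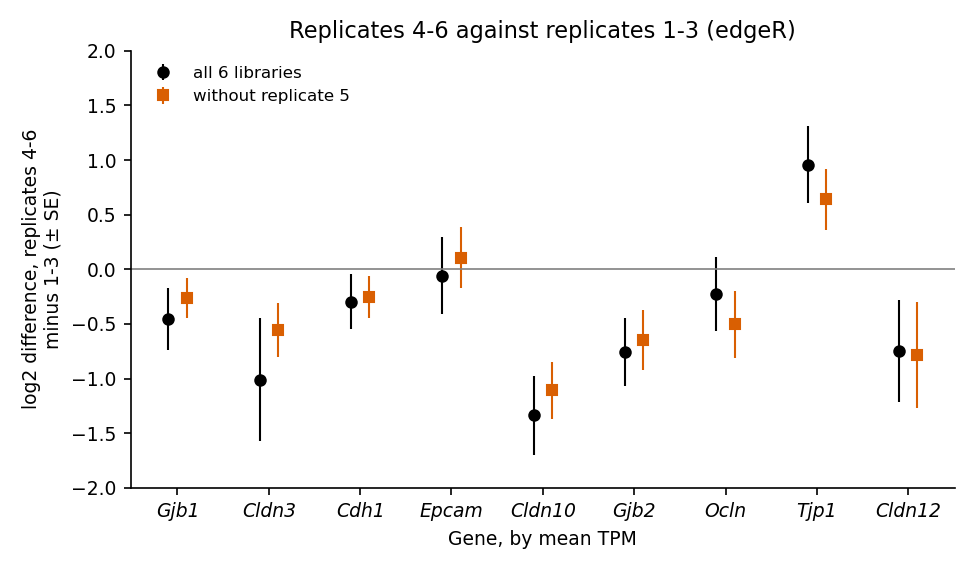
Log2 difference of replicates 4 to 6 minus replicates 1 to 3 by edgeR for each of the 9 genes, with bars of 1 SE, in all 6 libraries (black) and without replicate 5 (orange). Cldn10 is lowest in both, at -1.34 and -1.11, and Tjp1 is highest.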

How the data were processed

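Each of the 6 libraries came as 1 table of raw counts per gene symbol. The deposited counts were made by the authors with Trim Galore 0.6.4, FastQC, STAR 2.7.9a, SAMtools and featureCounts on build mm10, per the submitters' processing notes. Strand setting, annotation release and the treatment of reads with several alignments are not given in the sources used here. The deposited length column, in bp, is another measure: for each of the 55253 symbols given as 1 interval it is the whole distance from start to end, introns included.

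TPM was computed from exon lengths of GENCODE M21 (55141 of 55367 symbols, 99.9967% of counts), scaled to all genes. Background was taken from 1995 olfactory and vomeronasal receptor genes (14.8 Mb, 8519 counts). Members were compared in pairs, within each library, on log2(TPM + 1) by an exact sign-flip test (two-sided) with Benjamini-Hochberg adjustment over 36 pairs at a threshold of 0.05. Replicates 4 to 6 and 1 to 3 were compared over all genes by the quasi-likelihood test of edgeR 4.0.16, after filterByExpr and TMM scaling. Alternatives used DESeq2 1.42.0 and limma 3.58.1 in R 4.3.3. Other steps ran in Python 3.11.15 (matplotlib 3.10.9, scipy 1.17.1, pandas 2.3.3, numpy 2.4.6). The edgeR step was tested on simulated data for replicates 4 to 6 against 1 to 3 (8723 genes). It recovered 82 of 100 genes changed 4-fold and 1 of 100 changed 2-fold, with 5 false calls. The changed genes were drawn only from those with more counts than Cldn12, and no simulated library was made to stand apart. Alternatives changed length, scaling, background, pseudocount, filter, tool and library. No 2 libraries held identical counts. Totals of 4670819 to 7072270 counts set the precision.

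The members and lists were chosen with earlier results of these data known. Named were all members, the 3 highest genes of each junction list, the 3 genes most like Gjb1 and Cdh1, and genes overlapping a member. A few genes that this rule names are not reported here. Others were named after their values were seen.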

Additional observations from a re-analysis of the deposited data

Results flagged for a closer look

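Of 58 series of 6 library values looked at, 14 held a library whose gap to the nearest other exceeded 0.625 of the whole range. It was replicate 5 in 12 of them and replicate 4 in 2. Of the 58, 17 were added because the text names the gene. Chance alone flags about 1 series in 20, and these series share libraries. Replicate 5 had a background of 324 counts per Mb, against 25.8 to 108 in the others. It was high for Tjp1 at 5.67 TPM (0.837 to 2.33 in the others), for Gja5 at 5.03 (0.139 to 0.578), for Cgnl1 at 4.87 (1.75 to 2.66) and for Ctnna2 at 22.3 (0.682 to 4.22). The same held for Dsp at 1.69 (0.626 to 0.947), Grhl2 at 3.84 (0.811 to 1.85), Zeb1 at 3.99 (0.118 to 0.858) and Zeb2 at 1.61 (0.0452 to 0.281). It was low for Llgl2 at 2.12 TPM (4.06 to 4.80) and Spint2 at 15.4 (24.0 to 28.5), and the share of Cldn3 among the claudins was 7.51% (31.4% to 40.9%). Replicate 4 was high for Cd9 at 11.1 TPM (3.65 to 5.24) and for Spp1 at 131 (22.1 to 54.1). Background was expected to give 41.4% of all counts of Tjp1, 103% of those of Gja5 and 114% of those of Ctnna2, but 0.635% of those of Spint2. Its part in the low values was not tested.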

How the results depend on the processing

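The median over the 9 genes, averaged over libraries, was 5.84 TPM and became 0.831 by gene span, 8.52 as CPM (counts per total, not divided by length) and 9.96 with ribosomal RNA left out. The number over background in all libraries, 5, was 3 at 10 times background (3.84% of all genes) and 5 to 8 leaving out each library, with 8 and 32% of all genes without replicate 5. The number of pairs that differ, 0 by the exact test, was 31 by gene span, 23 with background subtracted, 27 by limma and 24 to 29 by limma leaving out each library, and pairs with 1 direction, 20, were 31 by gene span. The exact test's counts are 0 or the number of pairs with 1 direction, so they restate it. Neighbours changed order by gene span for Gjb1 and Cldn3 (-1.28), Cdh1 and Epcam (-0.47), Cldn10 and Gjb2 (-1.67) and Tjp1 and Cldn12 (-0.21), as CPM for Cldn3 and Cdh1 (-1.35), Epcam and Cldn10 (-0.12) and Ocln and Tjp1 (-0.43), with background subtracted for Cldn10 and Gjb2 (-0.22), and for Epcam and Cldn10 without replicate 4 (-0.13) or 5 (-0.052), in a range of -0.13 to 0.27 over all libraries left out. Between replicates 4 to 6 and 1 to 3, edgeR's 1 higher and 0 lower calls became 556 and 233 with DESeq2 and 790 and 203 without a filter. With library totals alone they were 1 and 1. Leaving out each library gave 0 to 1656 higher and 0 to 561 lower, the largest without replicate 4, with 366 and 369 without replicate 5. The difference of Epcam turned to 0.11 with library totals, without replicate 5 and without replicate 6 (-0.62 to 0.11 over all left out), and that of Ocln to 0.026 with library totals, a setting that moved the median of all genes to 0.19. DESeq2 moved that median to 0.67 and no filter to 0.77, and both are among the settings where Cldn10 passed. Of 99 such values for the 9 genes 91 kept direction and side of the threshold, 4 reversed and 4, all of Cldn10, passed. The cause of these changes was not tested. No paired analysis was possible because the labels number the replicates 1 to 6 in 1 group. The other scalings of family shares, of pairs with 1 direction and of ranges, and the shares with libraries left out, were chosen after seeing the data. Low counts limit Cldn12 and Cldn3 in replicate 5, and intervals cover counting error only.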

Other observations

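Among the 13 listed transcription regulators of epithelial state, the splicing regulator genes Esrp1 and Esrp2 had 2.59 ± 0.566 and 2.26 ± 1.06 TPM (SD, n = 6), and Grhl2, an activator of junction genes, had 1.72 TPM. Of the genes of factors known to repress Cdh1, Snai1 had 5 counts in all libraries together, Snai2 2 and Twist1 1. Zeb1 and Zeb2, of the same kind, had 178 and 116 counts. Zeb1 had 1.07 TPM on average, close to Cldn12, with 3.99 in replicate 5, and Zeb2 had 0.380 on average, with 1.61 in replicate 5. Background was expected to give 59.2% and 66.2% of their counts. None of the 13 was over 3 times background in all libraries.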
